A study of Salvelinus alpinus with 144 samples.

Results

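The genes described here belong to the proteasome and ubiquitin pathway of Arctic charr (*Salvelinus alpinus*) embryos. They were chosen by symbol alone: every gene whose identifier begins with psma to psmg, ube, usp, cul, rnf or trim followed by a digit, or with fbx, and that had at least 10 reads over all 72 libraries. Of 42433 genes in the table, 90 matched, and 88 of the 40311 genes with at least 10 reads were kept. The symbols rnf138 (9 reads) and trim42 (4 reads) fell below that minimum. No cullin (cul), 20S beta (psmb) or proteasome activator (psme) symbol was present, and many genes carry only a locus number, so the members are the part of the pathway that the annotation names and not the whole of it.

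Proteins are marked for destruction by a relay of enzymes. An E2 enzyme carries ubiquitin to a ligase (an E3), the ligase attaches it to a chosen protein, and deubiquitinases can take it off again. A chain of ubiquitin sends the protein to the 26S proteasome, a barrel-shaped core (20S) that cuts proteins, capped by a regulatory particle (19S) that unfolds them. In embryos the pathway sets the pace of the cell cycle, because cyclins and securin are removed by it at each division, and it turns over signalling and muscle proteins as tissues form.

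The embryos came from crosses of wild-caught parents of 2 morphs that live in the same lake, Thingvallavatn in Iceland: a small benthic charr (SB) and a planktivorous, limnetic charr (PL). With the mother named first, the cross-types were the hybrids SB×PL and PL×SB and the pure crosses SB×SB and PL×PL, each with 3 families. Whole embryos were sampled at 150 and 200 τs, a relative age counted in units of the time needed to form 1 somite pair, with 3 embryos per family at each age, so that each of the 8 groups held 9 embryos. All were raised in 1 hatching tray, and no allele, drug or other treatment separates the groups. At 150 τs the pharyngeal skeleton begins to form, and at 200 τs most head cartilages are present. Embryos of 1 family are full relatives, so families, of which there are 3 per cross-type, are the independent units behind each group.

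Total counts ranged over the 72 libraries between 11969598 and 17133123 reads (median 15922750), and no pair of columns of a group was identical. Levels are given as TMM-normalized CPM, the count of a gene as a share of its library's scaled total, differences as log2 fold changes, and a gene is called changed when its edgeR quasi-likelihood p, adjusted over all 40311 genes (Benjamini-Hochberg), was under 0.1. One PL×SB embryo at 200 τs (family 3 B) deviated most from its group over all genes, with a root-mean-square log2 deviation of 0.724 against a median of 0.347. Of the 88 members, 77 averaged at least 1 CPM and 11 less. The least read were the F-box gene fbxo47, with 10 reads in total, and fbxo24, with 56.

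The first question was how the pathway changed between the 2 ages, whatever the cross. Averaged over cross-types, 49 of 88 members (55.7%) fell at 200 τs relative to 150 τs and 19 (21.6%) rose, beside 34.3% of all genes that fell and 35% that rose. Among genes of at least 1 CPM, 48 of 77 members (62.3%) fell and 14 (18.2%) rose, beside 42.1% and 34% of all such genes. The median log2 fold change was -0.22 over the members and 0.00 over all genes. In whole embryos, fewer cells of a type and less RNA per cell cannot be told apart, and a level is a share of each embryo's mRNA.

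**Figure D1:**
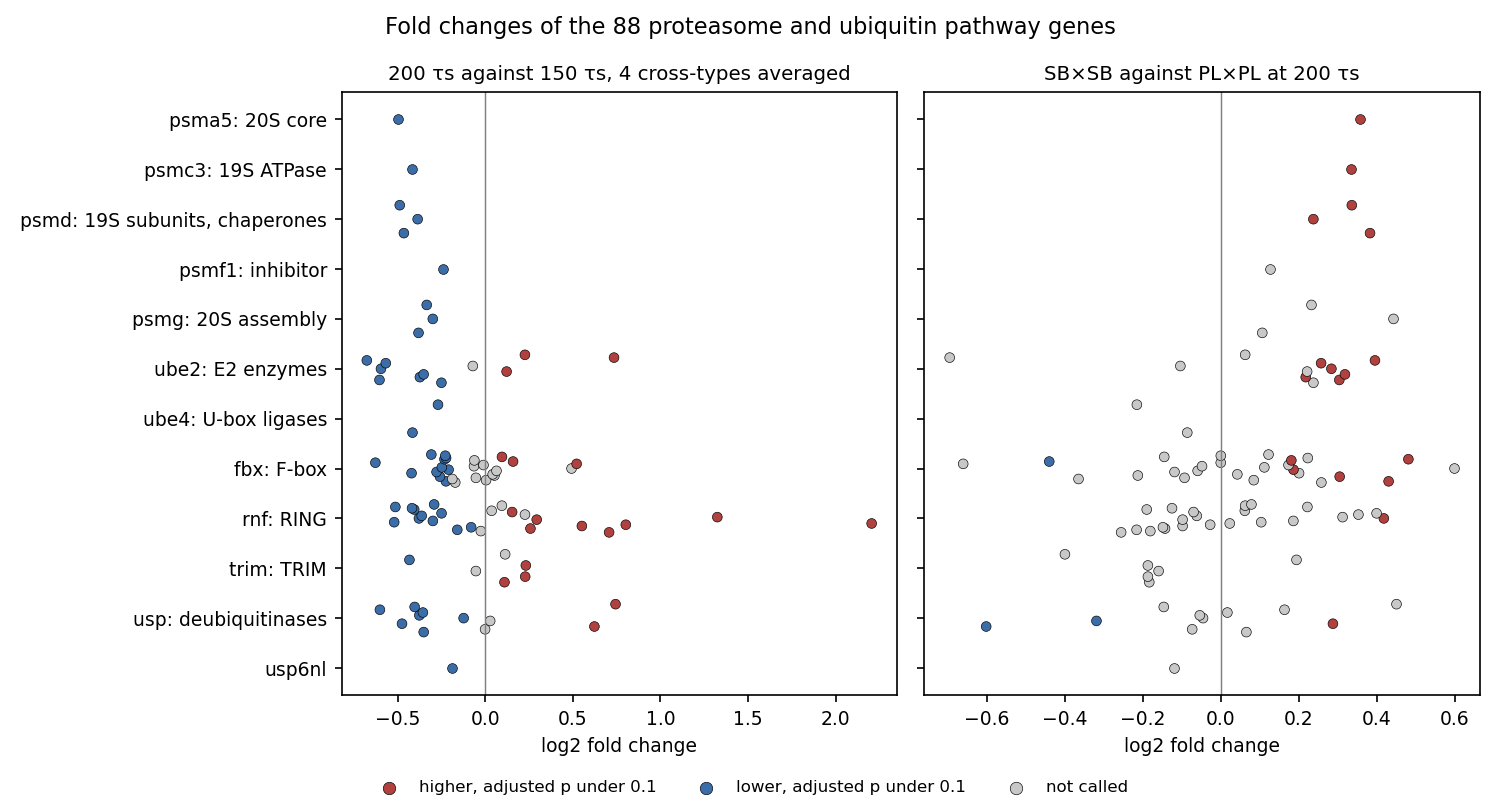
Log2 fold change of each member by role class, for 200 τs against 150 τs averaged over cross-types and for SB×SB against PL×PL at 200 τs; each point is 1 gene, and coloured points passed the adjusted p of 0.1. All 9 proteasome genes lie below 0 in the comparison of ages and above 0 in the comparison of pure crosses, while the F-box, RING and TRIM classes lie on both sides.

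The proteasome genes fell together. All 9 members with a psm symbol were lower at 200 τs, with log2 fold changes between -0.50 and -0.24, and 6 of the 9 fell in all 12 families. psma5, which encodes the alpha 5 subunit of the 20S core, ran from 140.1 to 346 CPM (median 234) in the 36 embryos at 200 τs, against 263 to 426 CPM (median 321) in the 36 at 150 τs. The upper part of the later range thus overlapped the earlier one, but the median at 200 τs was below every embryo at 150 τs. psma5 fell by 0.50 on the log2 scale (SE 0.05, edgeR adjusted p = 5.66e-14).

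The regulatory particle showed the same order of ages. psmc3, one of the ATPases that unfold substrates, ran from 118 to 269 CPM (median 184) at 200 τs, against 194 to 319.6 CPM (median 244) at 150 τs, and fell by 0.42 (SE 0.04, edgeR adjusted p = 4.1e-13). psmd8, a subunit of the lid of the particle, ran from 96.0 to 207 CPM (median 143) at 200 τs, against 163 to 276 CPM (median 206) at 150 τs, and fell by 0.49 (SE 0.05, edgeR adjusted p = 5.66e-14). For both genes the ranges overlapped, with the median at 200 τs under the lowest embryo at 150 τs. psmd5 and psmd10, which in mammals act as chaperones of the particle's base during its assembly, fell by 0.39 and 0.46.

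The remaining proteasome genes act on the core. psmf1, the gene of an inhibitor and adaptor of the 20S core known as PI31, ran from 43.8 to 70.9 CPM (median 55.7) at 200 τs, against 56.0 to 78.2 CPM (median 65.2) at 150 τs, and fell by 0.24 (SE 0.03, edgeR adjusted p = 9.06e-10). The core's assembly chaperones psmg2, psmg3 and psmg4 fell by 0.38, 0.30 and 0.33 and their ranges at the 2 ages overlapped over most of their width. psmg2 ran from 7.44 to 16.6 CPM (median 10.6) at 200 τs, against 8.20 to 16.8 CPM (median 14.7) at 150 τs (SE 0.05, edgeR adjusted p = 7.18e-10). psmg3 was the least even of them, with values between 3.97 and 14.6 CPM at 200 τs, against 5.25 to 18.2 CPM at 150 τs (SE 0.12, edgeR adjusted p = 0.0233).

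Of 11 E2 genes, 7 fell and 3 rose (34.3% and 35% of all genes). The decreases included ube2t and the cell-cycle E2 genes ube2s and ube2c. ube2t, whose product loads ubiquitin in the Fanconi anaemia pathway of DNA repair, ran from 5.09 to 12.7 CPM (median 8.78) at 200 τs, against 9.27 to 18.2 CPM (median 13.5) at 150 τs, and fell by 0.68 (SE 0.06, edgeR adjusted p = 6.4e-17). ube2s, which lengthens ubiquitin chains for the anaphase-promoting complex, ran from 36.9 to 69.9 CPM (median 52.4) at 200 τs, against 61.5 to 93.6 CPM (median 75.0) at 150 τs, and fell by 0.57 (SE 0.04, edgeR adjusted p = 8.34e-22, the smallest of any member). ube2c, which starts those chains, ran from 30.7 to 69.2 CPM (median 47.4) at 200 τs, against 45.1 to 98.3 CPM (median 70.0) at 150 τs, and fell by 0.60 (SE 0.06, edgeR adjusted p = 1.88e-14).

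Each of these 3 genes was called lower in all 4 cross-types, with ranges that overlapped only in part between the ages. Among the E2 genes that rose with at least 1 CPM, the largest increase was that of ube2w, whose product attaches ubiquitin to the N-terminus of proteins. It ran from 7.96 to 21.1 CPM (median 15.0) at 200 τs, against 8.64 to 16.9 CPM (median 12.7) at 150 τs (log2 fold change 0.23, SE 0.05, edgeR adjusted p = 0.000113), and most of the 2 ranges was shared. Both ube4 ligases, which extend existing chains, fell, and ube4a ran from 19.5 to 40.1 CPM (median 34.0) at 200 τs, against 34.9 to 51.4 CPM (median 44.5) at 150 τs (log2 fold change -0.42, SE 0.04, edgeR adjusted p = 9.77e-14).

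The ligase classes were divided. Of 25 F-box genes, whose products choose substrates for cullin-based ligases, 11 fell, 3 rose and 11 were not called. Of 23 RING genes, 11 fell and 8 rose. Beside these, 34.3% of all genes fell and 35% rose, and 42.1% and 34% of genes of at least 1 CPM. The RING genes that rose and the F-box genes that fell were near these shares. rnf168, a ligase that marks histones at DNA breaks, ran from 7.23 to 15.2 CPM (median 11.96) at 200 τs, against 12.6 to 20.3 CPM (median 16.7) at 150 τs, and fell by 0.52 (SE 0.05, edgeR adjusted p = 3.23e-15).

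The largest increase of a RING gene above 1 CPM was that of rnf150, with 0.531 to 3.91 CPM (median 2.34) at 200 τs, against 0.571 to 2.16 CPM (median 1.37) at 150 τs (log2 fold change 0.80, SE 0.09, edgeR adjusted p = 1.54e-11). It rose in all 12 families, although single embryos of both ages overlapped. Under 1 CPM, rnf151 and rnf182 had larger increases of 2.21 and 1.32, and these were named after their values were seen. rnf151 ran from 0.246 to 1.098 CPM at 200 τs, against 0 to 0.367 CPM at 150 τs.

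Among the 6 TRIM genes, also ligases, 3 rose and 1 fell, beside 35% and 34.3% of all genes. trim37 ran from 21.96 to 37.0 CPM (median 27.5) at 200 τs, against 18.7 to 28.9 CPM (median 24.5) at 150 τs (log2 fold change 0.23, SE 0.04, edgeR adjusted p = 2.62e-07), and rose in 12 of 12 families. trim45 ran from 2.12 to 5.16 CPM (median 3.28) at 200 τs, against 2.90 to 6.22 CPM (median 4.59) at 150 τs, and fell by 0.43 (SE 0.06, edgeR adjusted p = 2.69e-09). trim54, a gene of striated muscle in mammals, stayed at or below 0.476 CPM in every embryo and was not called (log2 fold change 0.11, edgeR adjusted p = 0.717).

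Of the F-box genes at the extremes, fbxo15, known from mouse stem cells, ran from 0.619 to 2.78 CPM (median 1.90) at 200 τs, against 0.856 to 4.43 CPM (median 2.54) at 150 τs, and fell by 0.42 (SE 0.09, edgeR adjusted p = 5.5e-05). fbxo40, a muscle ligase in mice, averaged under 1 CPM and ran from 0.186 to 3.69 CPM (median 0.793) at 200 τs, against 0.0617 to 3.27 CPM (median 0.423) at 150 τs (log2 fold change 0.52, SE 0.24, edgeR adjusted p = 0.0509). fbxo7, whose human protein binds PI31, rose by 0.16 (SE 0.06, edgeR adjusted p = 0.0251). All 3 had ranges that overlapped over most of their width. fbxo7 did not pass without PL×PL family 1 (log2 fold change 0.06), and fbxo40 did not pass without PL×SB family 1, SB×PL family 1 or 3, or SB×SB family 1.

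Deubiquitinases mostly fell, 7 of 11, and 2 rose, beside 34.3% and 35% of all genes. usp49, which removes ubiquitin from histone H2B in human cells, ran from 16.3 to 30.3 CPM (median 24.2) at 200 τs, against 24.4 to 42.1 CPM (median 37.0) at 150 τs, and fell by 0.60 (SE 0.04, edgeR adjusted p = 6.6e-20). usp13 went the other way, with 3.44 to 15.3 CPM (median 9.96) at 200 τs, against 2.31 to 10.5 CPM (median 6.0) at 150 τs (log2 fold change 0.62, SE 0.10, edgeR adjusted p = 2.14e-07). usp6nl, matched by its symbol although its protein acts on small GTPases and is not a deubiquitinase, fell by 0.19 (SE 0.04, edgeR adjusted p = 0.000127).

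With all families kept, each cross-type showed this lean on its own, and the 4 sets of embryos do not overlap. In SB×PL, 40 members fell and 11 rose at 200 τs (24.6% and 24.9% of all genes). The counts in PL×SB were 37 and 10 (21.1% and 23.2% of all genes), those in SB×SB 36 and 11 (22.6% and 23.3%), and those in PL×PL 40 and 18 (23.8% and 25.5%). Without SB×SB family 2 the SB×SB counts were 18 that fell and 12 that rose. Without PL×PL family 1 the PL×PL counts were 38 and 7, and without PL×SB family 2 the PL×SB counts were 34 and 6. The shares of all genes without these families are not given. Whether the lean in SB×SB held against all genes without family 2 therefore cannot be read from these counts.

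A set of 27 members (30.7%) was called lower in each of the 4 cross-types, beside 13.4% of all genes, and 7 (7.95%) were called higher in each, beside 15.3%. The 27 included 7 of the 9 proteasome genes, with psmd5 and psmg3 missing, whereas the 7 that rose were the RING genes rnf103, rnf130, rnf144a, rnf150, rnf151 and rnf182 and the deubiquitinase gene usp8. By family means, 30 of 77 members (39%) were lower at 200 τs in 12 of 12 families, beside 20.1% of all genes of at least 1 CPM, and 6 (7.79%) were higher in all 12, beside 18%.

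The second question was how the pure crosses differed. At 200 τs, 18 of 88 members (20.5%) were higher in SB×SB than in PL×PL, beside 8.7% of all genes, and 3 (3.41%) were lower, beside 8.85%. Among genes of at least 1 CPM the same 18 made 23.4% of 77 members, beside 11% of all such genes, and the 3 made 3.9%, beside 10.9%. The median log2 fold change was 0.06 over the members and -0.03 over all genes. The 18 were 5 proteasome genes, 6 E2 genes, among them ube2c, ube2d2, ube2g1, ube2s and ube2t, 5 F-box genes, the RING ligase gene rnf181 and the deubiquitinase gene usp16, with log2 fold changes between 0.18 and 0.48.

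All 9 proteasome genes had a log2 fold change above 0, and the 5 called were the subunit genes and regulatory chaperones psma5, psmc3, psmd5, psmd8 and psmd10. The share of all genes above 0 is not given, and genes that move together are not separate observations. With the counts of siblings in each family summed, none of these 5 passed. Without SB×SB family 3 only psmd8 of the 5 passed. psma5 ran from 197 to 346 CPM (median 248) in the 9 SB×SB embryos, against 165 to 235 CPM (median 204) in the 9 PL×PL embryos (log2 fold change 0.36, SE 0.10, edgeR adjusted p = 0.015). psmc3 ran from 157 to 269 CPM (median 201) in SB×SB, against 144 to 174 CPM (median 163) in PL×PL (log2 fold change 0.33, SE 0.09, edgeR adjusted p = 0.00995). In both genes the lower SB×SB embryos lay within the PL×PL range, while the SB×SB median lay above every PL×PL embryo. psmd10 had the largest value of the 5, with 33.6 to 58.3 CPM (median 44.7) in SB×SB, against 26.4 to 37.9 CPM (median 35.5) in PL×PL (log2 fold change 0.38, SE 0.11, edgeR adjusted p = 0.015).

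The smallest adjusted p of any member was that of fbxw12, an F-box gene. It ran from 10.7 to 13.1 CPM (median 11.3) in SB×SB, against 6.62 to 9.94 CPM (median 7.97) in PL×PL (log2 fold change 0.48, SE 0.10, edgeR adjusted p = 0.00103). Another F-box gene, fbxl15, had 3.75 to 4.99 CPM (median 4.33) in SB×SB, against 2.39 to 3.73 CPM (median 3.27) in PL×PL (log2 fold change 0.43, SE 0.10, edgeR adjusted p = 0.00431). These 2 were the members in which every SB×SB embryo lay above every PL×PL embryo, 2.6% of 77, beside 0.34% of all genes of at least 1 CPM.

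rnf181 ran from 15.4 to 23.9 CPM (median 17.6) in SB×SB, against 10.9 to 16.2 CPM (median 13.9) in PL×PL (log2 fold change 0.42, SE 0.11, edgeR adjusted p = 0.00652), with a narrow overlap. ube2t ran from 7.42 to 12.7 CPM (median 9.66) in SB×SB, against 5.09 to 9.17 CPM (median 7.75) in PL×PL (log2 fold change 0.40, SE 0.12, edgeR adjusted p = 0.0211). usp16, which removes ubiquitin from histone H2A, ran from 28.6 to 42.4 CPM (median 36.1) in SB×SB, against 19.04 to 35.9 CPM (median 29.2) in PL×PL (log2 fold change 0.29, SE 0.09, edgeR adjusted p = 0.0323). In these last 2 the groups shared more of their range.

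The 3 genes lower in SB×SB were usp13, fbxo7 and usp24. usp13 ran from 3.44 to 9.82 CPM (median 6.68) in SB×SB, against 8.01 to 15.3 CPM (median 10.4) in PL×PL (log2 fold change -0.60, SE 0.20, edgeR adjusted p = 0.0426), with overlap only between the upper SB×SB and the lower PL×PL embryos. fbxo7 ran from 10.3 to 14.1 CPM (median 12.3) in SB×SB, against 10.3 to 24.9 CPM (median 14.4) in PL×PL (log2 fold change -0.44, SE 0.13, edgeR adjusted p = 0.017). The ranges shared their lower end, and without PL×PL family 1 its log2 fold change was -0.11 (edgeR adjusted p = 0.633).

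**Figure D2:**
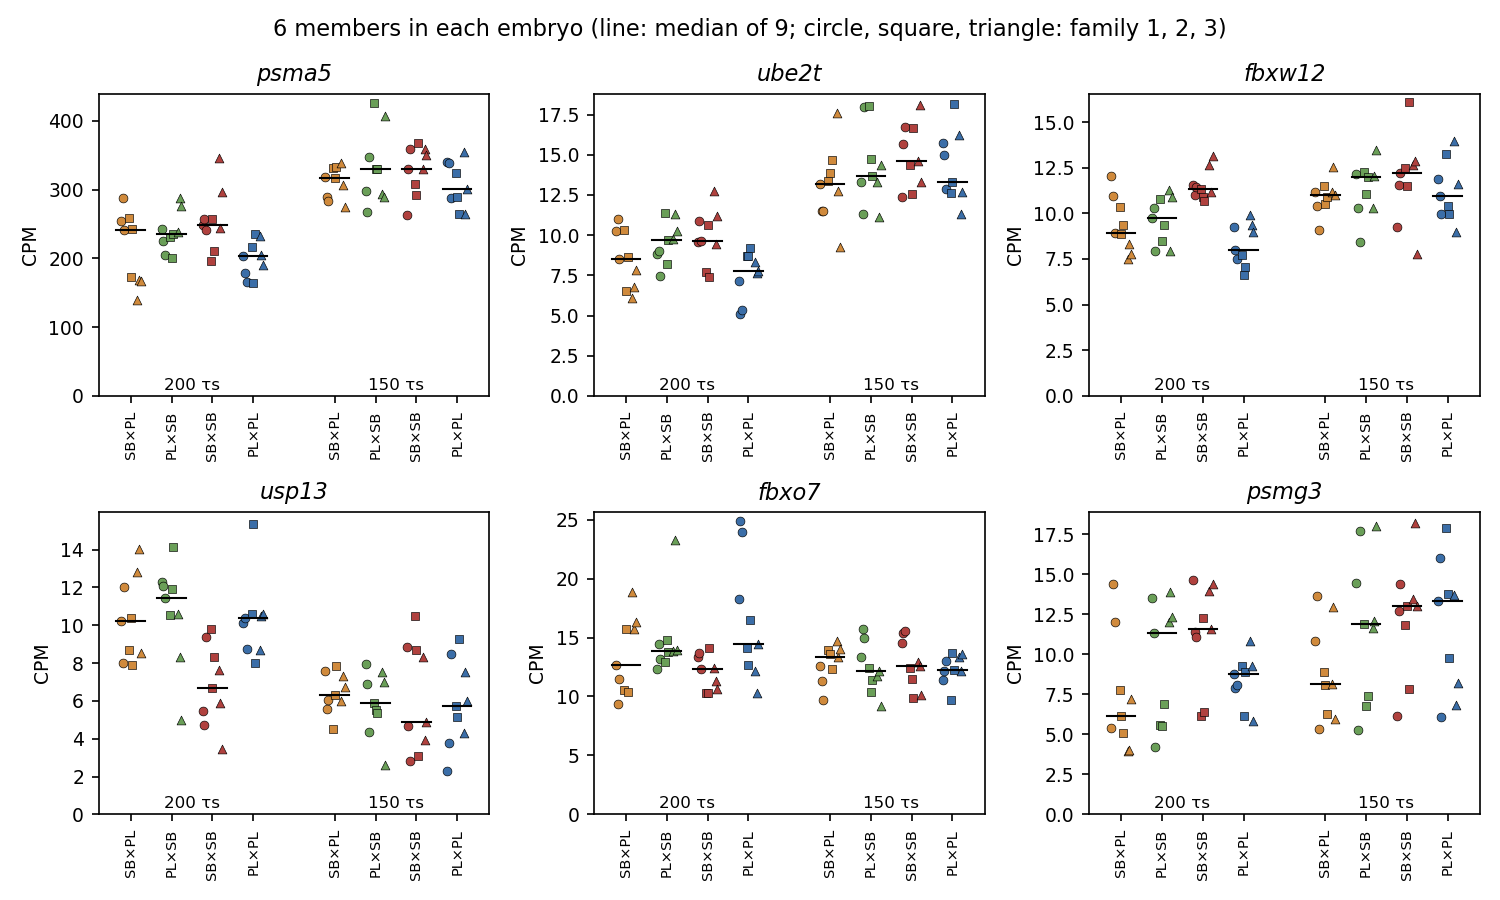
CPM of 6 members in every embryo, by cross-type and age; each point is 1 embryo, marked by family, and the bar is the median of the 9. fbxw12 at 200 τs separates SB×SB (10.7 to 13.1 CPM) from PL×PL (6.62 to 9.94 CPM), psma5 and ube2t are lower at 200 τs in each cross-type, and psmg3 scatters widely within groups.

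The calls between the pure crosses rested on few families. With the 3 siblings of each family summed, 5 of the 21 passed (fbxl6, fbxl15, fbxw12, rnf181 and usp13). Over all 88 members, 4 were then higher and 1 lower, beside 3.07% and 3.46% of all genes. The calls with siblings summed were thus near the shares of all genes. Without SB×SB family 3 the count over all members was 6, of which 5 were among the 21, and the share of all genes in that fit is not given. All 21 kept their direction in both settings, 3 (fbxl15, fbxw12 and rnf181) passed in both, and the median log2 fold change of the 18 higher genes was 0.24 without that family. Without PL×PL family 1, 12 of the 21 passed, ube2t and usp16 not among them. usp13 did not pass without PL×PL family 2, SB×SB family 1 or SB×SB family 3. By family means, 16 of 77 members (20.8%) had every SB×SB family above every PL×PL family, beside 12.2% of all genes of at least 1 CPM, and 7 (9.09%) had every one below, beside 13.8%.

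Muscle transcripts differed between the same embryos. Of 17 fast muscle markers 2 were measured under their symbols, neb, a giant protein of the thin filament, and atp2a1, the calcium pump of fast fibres. Their summed level ran from 358 to 825 CPM (median 624) in SB×SB at 200 τs, against 833 to 1923 CPM (median 1317) in PL×PL, with no overlap. Over all embryos the sum ran from 358 to 1923 CPM (median 875) at 200 τs, against 134 to 599 CPM (median 383) at 150 τs. The part of tissue composition in the differences of the members was not tested, and none of the 13 proliferation, 8 slow or heart muscle, 11 neuron and 6 blood markers was matched by symbol. matn1, the cartilage marker that was measured, rose by 6.06 on the log2 scale between the ages (edgeR adjusted p = 1.94e-46), and the bone, lens and retina, liver, epidermis and immune lists had 1, 2, 1, 1 and 2 genes measured, of which 1 epidermal gene was higher in SB×SB at 200 τs.

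At 150 τs no member was called between SB×SB and PL×PL by edgeR or DESeq2, beside 0.0372% of all genes by edgeR, and 2 members had an unadjusted p under 0.05. The 18 genes higher in SB×SB at 200 τs had a median log2 fold change of 0.31 at that age and 0.07 (-0.16 to 0.14) at 150 τs. Their change between the ages was smaller in SB×SB, with a median of -0.27, than in PL×PL, with a median of -0.51, in 18 of 18 genes, which were chosen on the later of these values. The test of that difference, the interaction of morph and age, called none of the 88 members in edgeR (0.0347% of all genes), with 8 at an unadjusted p under 0.05. For neither count at an unadjusted p is the share of all genes given. DESeq2 called 1, psmd5, with a difference of 0.40 (DESeq2 adjusted p = 0.0886). Of the genes DESeq2 tested, 0.39% were called with a positive and 0.801% with a negative difference, so 1 of 88 was near the share of all genes.

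The comparison of morphs and the comparison of ages could be set side by side without shared embryos by taking the ages from the hybrids. Across the 77 members of at least 1 CPM, the log2 fold change of SB×SB against PL×PL at 200 τs and that of 200 τs against 150 τs in the hybrids had a Pearson r of -0.57 and a Spearman rho of -0.57. Over all 29448 such genes the values were -0.23 and -0.30, and over all 88 members, the 11 under 1 CPM included, they were -0.26 and -0.41. Both values run over genes of the same libraries, not over replicates, and are given without a test. Of the 18 genes higher in SB×SB, 17 (94.4%) were called lower at 200 τs in the hybrids, beside 62% of the 3249 genes higher in SB×SB overall. Members fell often in the hybrids in any case, with 45 of all 88 called lower at 200 τs, beside 29% of all genes. Of the 3 genes lower in SB×SB, 1 (33.3%) was called higher at 200 τs in the hybrids, beside 49.2% of the 3197 genes lower in SB×SB overall.

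**Figure D3:**
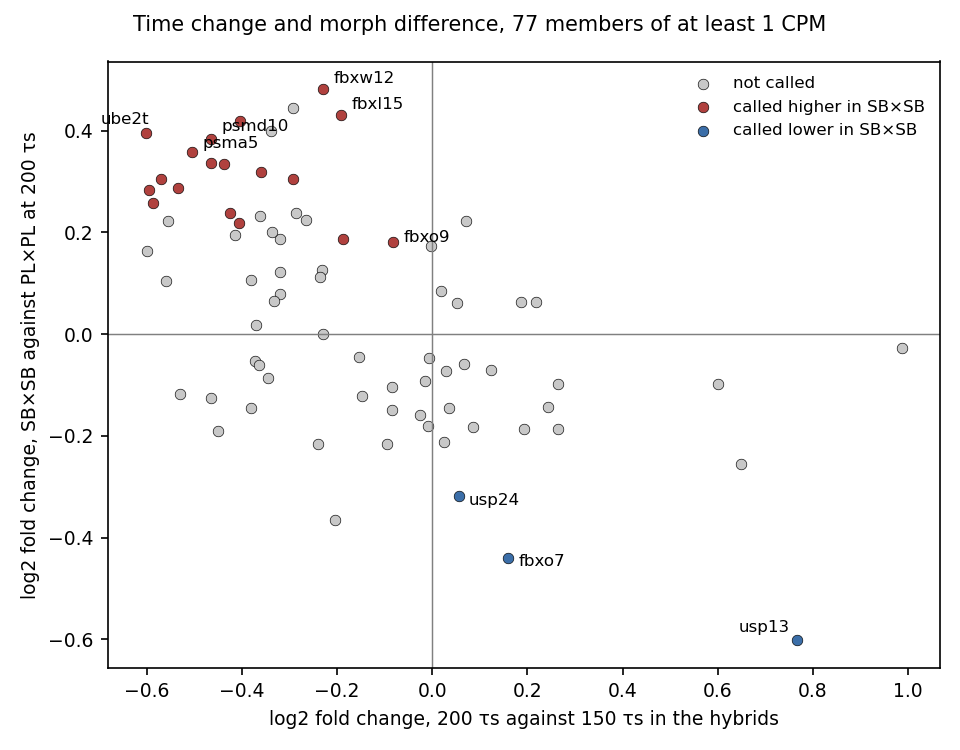
Log2 fold change of SB×SB against PL×PL at 200 τs (vertical) and of 200 τs against 150 τs in the hybrids (horizontal) for the 77 members of at least 1 CPM; each point is 1 gene, and coloured points were called between the pure crosses. The 18 genes higher in SB×SB lie left of 0, between -0.60 and -0.08 in the hybrids.

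The third question was where the hybrids lay. At 200 τs edgeR called no member in SB×PL against SB×SB (0.0794% of all genes), SB×PL against PL×PL (0.154%) or PL×SB against PL×PL (0.38%), and DESeq2 called none either. At an unadjusted p under 0.05 there were 19, 8 and 23 members. The shares of all genes at that p are not given for any hybrid comparison, so such counts show nothing particular to the members. In PL×SB against SB×SB, DESeq2 called 2 members higher and 1 lower (4.87% and 2.42% of the genes it tested). By edgeR, 2 members were higher (3.06% of all genes) and none was lower (1.25%), with 15 members at an unadjusted p under 0.05. The 2 were usp13, with 5.01 to 14.1 CPM (median 11.4) in PL×SB, against 3.44 to 9.82 CPM (median 6.68) in SB×SB (log2 fold change 0.65, SE 0.20, edgeR adjusted p = 0.0696), and usp12, a deubiquitinase with 27.9 to 37.1 CPM (median 30.2) in PL×SB, against 24.6 to 30.6 CPM (median 26.2) in SB×SB (log2 fold change 0.20, SE 0.06, edgeR adjusted p = 0.0726).

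Both calls were close to the threshold. Without the PL×SB embryo that stood apart only usp13 passed (edgeR adjusted p = 0.0981), and with single families left out usp13 passed only without PL×SB family 3 or SB×SB family 2, and usp12 in no case. Between the reciprocal hybrids 1 member was called (1.48% of all genes). This was usp42, a deubiquitinase gene with 11.9 to 16.6 CPM (median 15.4) in SB×PL, against 14.7 to 23.5 CPM (median 17.9) in PL×SB (log2 fold change -0.33, SE 0.10, edgeR adjusted p = 0.0915). DESeq2 called 1 member higher and 2 lower (1.26% and 3.4% of the genes it tested). With siblings summed the count was 0, as it was over all genes, with 10 members at an unadjusted p under 0.05, again without the share of all genes.

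At 150 τs no hybrid comparison called a member in edgeR or DESeq2. The share of all genes called by edgeR was 0.159% for SB×PL against SB×SB, 0.124% for SB×PL against PL×PL, 0.0447% for PL×SB against SB×SB, 0.0223% for PL×SB against PL×PL and 0.102% for SB×PL against PL×SB. At an unadjusted p under 0.05 the edgeR counts of members in these comparisons were 1, 1, 4, 4 and 1, again without the share of all genes.

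For the 21 genes that differed between the pure crosses, the hybrid means at 200 τs mostly lay between them, in 20 genes for SB×PL and in 19 for PL×SB. These genes were chosen by that difference in the same data, so a position between the crosses follows in part from the choice. The shares over all genes called between the pure crosses are not given, so no count of positions here is particular to the members. On a scale on which PL×PL is 0 and SB×SB is 1, the median position was 0.31 for SB×PL and 0.72 for PL×SB. By these medians each hybrid lay nearer to the pure cross of its father. SB×PL was nearer to SB×SB in 3 genes and PL×SB in 15. Among the 18 genes higher in SB×SB the counts were 1 and 15, so the lean came from these. In fbxo7 (SB×PL 0.64, PL×SB 0.34) and usp24 (0.64 and 0.32) each hybrid lay nearer to the cross of its mother. In usp13 both lay at PL×PL (0.01 and -0.09). With siblings summed, 5 of the 21 genes passed. Of these, usp13, fbxl15 (0.45 and 0.37), fbxw12 (0.37 and 0.46) and fbxl6 (0.28 and 0.499) had both hybrids nearer to PL×PL. Only rnf181 (0.15 and 0.75) had each hybrid nearer to the cross of its father. These positions were not recomputed without single families. Over the 77 members the median log2 fold change of SB×PL against PL×SB was -0.09, and without SB×PL family 3 it was -0.02, beside -0.02 and -0.01 over all genes of at least 1 CPM.

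That family also stood out in the proteasome genes. An index was taken as the mean log2 CPM of psma5, psmc3, psmd5, psmd8 and psmd10 relative to the mean over 72 embryos. At 200 τs it ran from -0.84 to 0.04 (median -0.18) in SB×PL, from -0.36 to 0.04 (median -0.16) in PL×SB, from -0.37 to 0.20 (median -0.06) in SB×SB and from -0.56 to -0.23 (median -0.34) in PL×PL. The 3 SB×PL embryos of family 3 had -0.84, -0.56 and -0.61, the 3 lowest values of the SB×PL group. In SB×SB family 3, embryos A and C had 0.15 and 0.20, the highest values at 200 τs, and embryo B had -0.12. In all 36 embryos the index ran from -0.84 to 0.20 (median -0.18) at 200 τs, against -0.02 to 0.59 (median 0.22) at 150 τs.

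**Figure D4:**
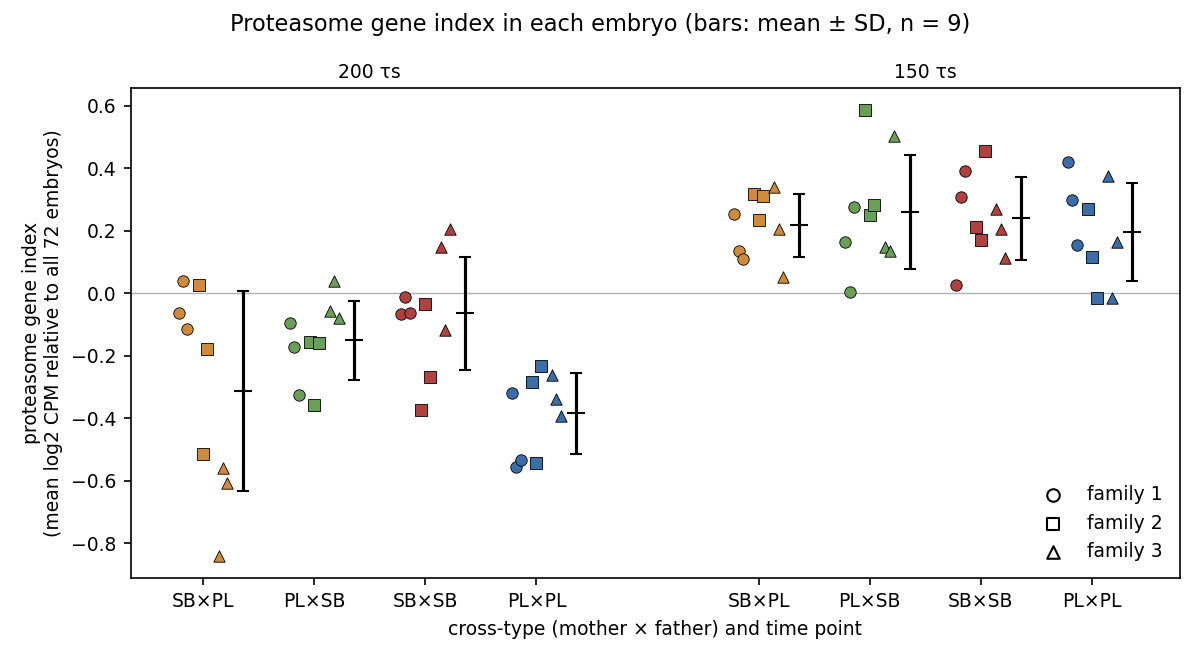
Proteasome gene index (mean log2 CPM of 5 genes relative to the mean of 72 embryos) in every embryo, by cross-type and age; points are embryos marked by family and bars are means with the SD (n = 9). The index is lower at 200 τs in each cross-type, and the 3 embryos of SB×PL family 3 lie between -0.84 and -0.56.

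Within groups these genes moved together over the embryos and their families. After the group mean was removed, the 10 pairs among the 5 genes had a mean Pearson r of 0.67 over the 72 embryos (0.38 to 0.94), and psma5 and psmd10 had the highest value of any pair of members. The 3 pairs among ube2c, ube2s and ube2t had a mean of 0.69. The assembly chaperones psmg2, psmg3 and psmg4 had a mean of 0.18, and all 2926 pairs of the 77 members had a mean of 0.04. The lowest value, -0.72, was that of the F-box gene fbxo9 and the deubiquitinase gene usp24. Family means were not removed, so these values also hold differences between families. They share library and depth and are given as a description.

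The study itself asked how variable expression was within a cross-type. The local coefficient of variation (LCV) ranks the coefficient of variation of a gene from 0 to 100 among genes of similar mean level, here the 500 nearest. It was computed for the 61 members, of 17044 genes, with a mean of at least 100 normalized counts in every group. The median over members at 200 τs was 56.9 in SB×PL, 40.7 in PL×SB, 40.9 in SB×SB and 38.3 in PL×PL, and at 150 τs 34.9, 45.3, 34.9 and 37.3 in the same order, beside 50.1 over all genes in each group. SB×PL at 200 τs was the one group whose median lay above 50, with 36 of 61 members above that value. With each embryo taken relative to its family mean, the medians at 200 τs were 56.9 in SB×PL, 41.1 in PL×SB, 43.1 in SB×SB and 40.7 in PL×PL.

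The 5 proteasome genes had a median LCV of 83.4 in SB×PL, 20.6 in PL×SB, 74.5 in SB×SB and 20.6 in PL×PL at 200 τs. At 150 τs the values were 25.9, 49.1, 40.9 and 62.3 in the same order. Taken relative to the family mean, the values at 200 τs were 62.1 in SB×PL, 17.03 in PL×SB, 74.5 in SB×SB and 38.9 in PL×PL. At 200 τs the crosses with SB mothers thus remained above the crosses with PL mothers. At 150 τs they lay below them instead, and relative to the family mean the values were 27.1, 49.5, 52.7 and 63.3 in the same order, not ordered by mother. The 5 genes moved together within groups, so they are not 5 separate observations. psmg3 had the highest mean LCV, 91.7, with values between 55.1 and 99.8 over the 8 groups, and fbxo21, an F-box gene, the lowest, 10.1. Of the 61 members, 9 were under 50 in all 8 groups and 4 above 50 in all 8. The shares of all genes are not given for these counts, so they show nothing particular to the members.

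**Figure D5:**
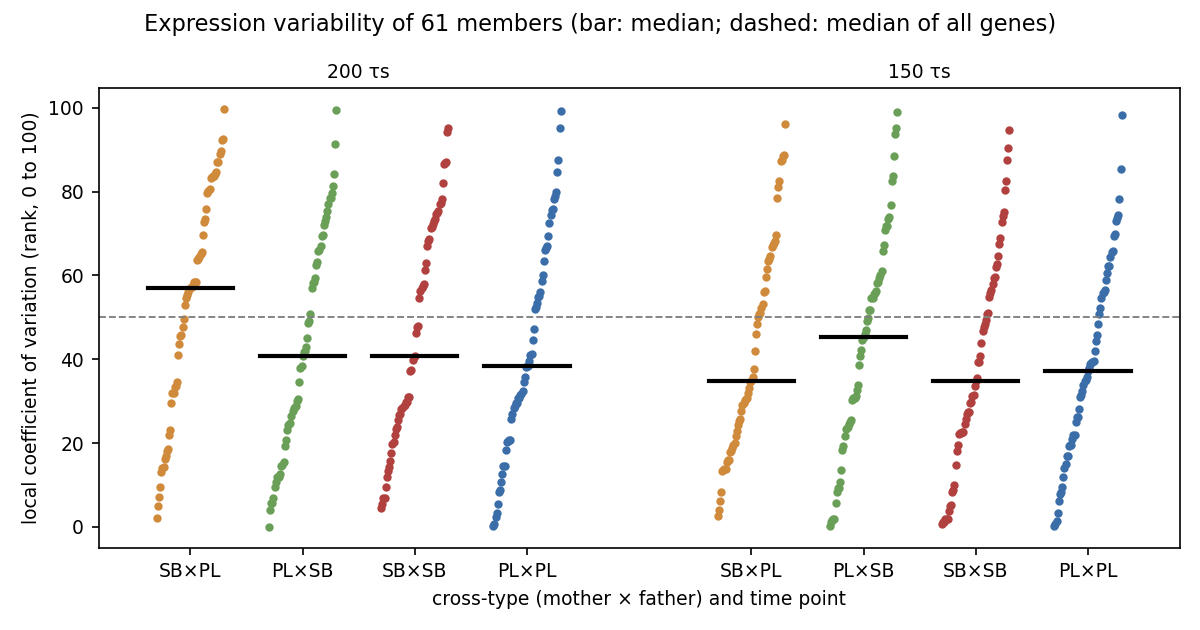
LCV (0 to 100) of the 61 members by cross-type and age, with the median of each group as a bar and that of all genes as a dashed line; points are genes, spread sideways by rank. The median over members is 56.9 in SB×PL at 200 τs and between 34.9 and 45.3 in the other 7 groups.

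Other genes of the pathway that the pattern of symbols does not reach gave a like picture for the ages. Of 120 listed genes, 32 were measured under their symbols, and 28 fell at 200 τs while 4 were not called (median log2 fold change -0.25). Beside them, 34.3% of all genes and 42.1% of genes of at least 1 CPM fell. skp2, the F-box subunit that removes a cell-cycle inhibitor, fell by 0.99 (edgeR adjusted p = 1.17e-24). anapc4, a subunit of the anaphase-promoting complex, fell by 0.59 (edgeR adjusted p = 2.3e-19), and sumo2, a small ubiquitin-like modifier, fell by 0.45 (edgeR adjusted p = 6.19e-12).

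Between the pure crosses at 200 τs, 9 of these 32 were higher in SB×SB and 4 lower, with a median of 0.03. The shares higher and lower were 8.7% and 8.85% of all genes, and 11% and 10.9% of genes of at least 1 CPM. The count of lower genes was near the latter share. sumo2 was among the higher genes (log2 fold change 0.36, edgeR adjusted p = 0.0169). The lower genes included the large ligases nedd4l (log2 fold change -0.40, edgeR adjusted p = 0.00557) and ubr4 (-0.36, edgeR adjusted p = 0.0975).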

How the data were processed

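Per the labels and the study's methods, poly-A mRNA of single whole embryos was sequenced on a DNBSEQ platform, adapters were removed by the sequencing provider, reads were aligned with STAR to the *Salvelinus* sp. genome, and the authors counted properly paired fragments per gene with featureCounts. The deposited values are raw counts, with 42433 genes and 72 libraries. Strand use was not given in the sources used here, so overlapping and antisense genes cannot be told apart, and near-identical salmonid paralogs remain uncertain.

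From these counts, genes with at least 10 reads in total were normalized by TMM and fitted with edgeR 4.0.16 (R 4.3.3) as 8 group means, using the quasi-likelihood test with an adjusted p threshold of 0.1. 19 contrasts were tested. DESeq2 1.42.0, other filters and factors, summed siblings, blocks for letter or family and leaving out each family were the alternatives. Named genes were, per role class, the called members with the largest increase and decrease at a mean of at least 1 CPM, all members of comparisons with 5 or fewer calls, and fbxo40, trim54, ube2c and ube2s. fbxl15, usp24, psmd5, psmg3, psmg4, rnf151 and rnf182 were added after their values were seen, and fbxo9 and fbxo21 as extremes. Members and lists were chosen with earlier results of these data known. Residuals of embryos that share a family across ages had a mean correlation of 0.096, and those that share a letter 0.013, so the letter was not used to pair samples. Embryos of 1 family were treated as replicates, and p-values then partly measure the spread within families. The fit was tested on simulated counts drawn without family structure, so that test does not bear on siblings treated as replicates. Promoter and protein sequences are not shown.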

Additional observations from a re-analysis of the deposited data

Results flagged for a closer look

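In 296 checks of 9 embryos each (the named and called members and the proteasome index in every group), 14 groups had 1 embryo apart from the rest, with a gap to its neighbour of more than 0.493 of the group's range. Chance gives such a gap in about 1 in 20 groups, which is near the share found here. In SB×SB at 200 τs the embryo was family 3 A in all 4 groups concerned, with 70.9 CPM of psmf1, 16.6 CPM of psmg2 and 53.3 CPM of ube2g1, each the highest, and 19.5 CPM of ube4a, the lowest. In PL×SB at 200 τs it was family 3 B, which stood apart over all genes too, with 23.3 CPM of fbxo7 and 41.8 CPM of usp6nl, the highest, and 7.96 CPM of ube2w, the lowest.

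In PL×SB at 150 τs family 3 C had the lowest psmg2 (10.5 CPM) and trim37 (20.9 CPM). In SB×PL at 150 τs family 1 C had 28.1 CPM of fbxo22, the lowest, and 44.3 CPM of usp24, the highest. In SB×SB at 150 τs family 1 C had 78.2 CPM of psmf1 and family 3 B had 16.9 CPM of ube2w, both the highest. In PL×PL at 200 τs family 2 B had 15.3 CPM of usp13, the highest. Whether anything beyond chance set these embryos apart was not tested.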

How the results depend on the processing

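The counts of members called between the ages, both directions together, stayed within 1.5 times in every fit that kept all families, while the 18 that rose in PL×PL were 10 with siblings summed and family as a block, and no result turned its direction. With families left out in turn, the count for both ages averaged over cross-types, 68 in all, ran from 62 to 71, that in SB×PL from 41 to 50, in PL×SB from 40 to 48, in SB×SB from 30 to 39 and in PL×PL from 45 to 54. The count between SB×SB and PL×PL at 200 τs, 21 in all, ran from 6 to 26 and was 5 with siblings summed, and at 150 τs it was 0 throughout. The shares of all genes with families left out are not given, so these ranges cannot be set against all genes. The count for the interaction ran from 0 to 1, the 1 being psmd5 without SB×SB family 2, and was 1 in DESeq2. The count for PL×SB against SB×SB at 200 τs ran from 0 to 1 with families left out. The 1 was usp13 in some fits, but rnf212 without PL×SB family 1 and rnf217 without PL×SB family 2, both lower in PL×SB. It was 1 without the filter of 10 reads, 1 with siblings summed and 1 without the PL×SB embryo that stood apart. The last setting was chosen after the data were seen. In DESeq2 the count was 3. With another expression filter usp12, usp13 and fbxo15 were called, and with only the embryos compared usp13, usp7 and fbxo15. In both settings fbxo15 was lower in PL×SB. Why these counts moved was not tested, except that summed siblings leave 3 samples per group.

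With the letter in the labels as a replicate block, 23 members were called between SB×SB and PL×PL at 200 τs and 69 between the ages. With family as a block the count between the ages was also 69, and all 49 that fell and all 19 that rose were called again. The letter pairs no samples by the check of residuals. The block with summed siblings was added after the data were seen.

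The LCV of members by group had a mean over the groups' medians of 41.1, and of between 40.6 and 42.0 under its alternatives. Depth limits the 11 members under 1 CPM, and 3 families per cross-type limit every comparison between crosses.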
